A study of Mus musculus with 18 samples.

Results

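Glucocorticoids are the stress steroids of the adrenal gland, and metallothioneins are small cysteine-rich proteins that bind zinc. The 9 genes described here were taken by their symbols from the 21899 gene IDs of the deposited tables, as genes of the glucocorticoid response in fat together with the metallothioneins Mt1 and Mt2. The RNA came from inguinal white adipose tissue, a fat depot under the skin, of C57BL/6J males. These were injected subcutaneously with LLC cells, a mouse lung carcinoma line that grows as a transplanted tumour, or with PBS, the saline control. Fat was collected 7 or 21 days later. At each time there were 4 PBS and 5 LLC libraries, which makes 4 groups and 18 libraries. Day 7 is labelled pre-cachexia and day 21 cachexia, the wasting that accompanies some tumours. The labels give no genotype beyond the strain and no age. They number the libraries of a group and do not say that each came from its own mouse, so each p-value reflects variation among libraries, some of which may be technical.

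In fat cells the enzyme 11-beta-hydroxysteroid dehydrogenase 1, encoded by Hsd11b1, regenerates active glucocorticoid from its inert 11-keto form. The hormone binds the glucocorticoid receptor, encoded by Nr3c1, which leaves its chaperones, enters the nucleus and binds DNA at glucocorticoid response elements. Among the genes it switches on are Fkbp5, a co-chaperone that lowers the receptor's affinity for hormone, Tsc22d3, which encodes the anti-inflammatory protein GILZ, the zinc finger repressor Zbtb16, the kinase Sgk1 and Nfkbia, the inhibitor that holds NF-kB in the cytoplasm. Mt1 and Mt2 respond to glucocorticoid and also to zinc through the factor MTF1, which binds metal response elements, and to inflammatory cytokines. Nfkbia is likewise a target of NF-kB itself.

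Library totals lay between 14566155 and 18969387 counts, and all 9 genes passed the filter on low counts in every comparison. The 10 fat cell markers, such as Adipoq and Plin1, were above 0 in every library. Some libraries stood apart in markers of other cells, given here as summed TPM (abundance scaled for gene length and library total). Macrophage markers summed to 249 to 487 in day 21 PBS libraries 1 to 3 and to 3113 in PBS library 4, against 1095 to 5153 in LLC at day 21 and 1435 to 3766 at day 7. Progenitor and fibroblast markers summed to 1409 to 2445 in the same 3 PBS libraries and to 7945 in library 4. In LLC at day 21 they summed to 2008 to 3537 in libraries 2 to 5 and to 9592 in library 1. At day 7 they summed to 3471 to 11953. B cell and lymph node markers reached 2216 in day 21 LLC library 3 and 518 in LLC library 1, against 297 or less elsewhere. Skeletal muscle markers summed to 7024 and 2026 in day 7 PBS and LLC libraries 3, against 62.1 to 126 in the other day 7 libraries. At day 21 they summed to 5612 and 1103 in PBS libraries 1 and 2, to 2045 and 643 in LLC libraries 2 and 5 and to 34.1 to 137 in the others. The part of muscle in the results below was not tested. With both libraries 3 removed at day 7, all 9 genes kept their direction and 0 passed. As 0 also passed with all day 7 libraries, that count says nothing about muscle. At day 21 no fit left out all the libraries with high muscle sums together. In whole fat, fewer cells of a type and less RNA per cell cannot be told apart.

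Mt1 and Mt2 lie side by side on chromosome 8 of GRCm38 (GENCODE annotation), both on the plus strand. Mt2 (ENSMUSG00000031762) spans 94172664 to 94173568 and Mt1 (ENSMUSG00000031765) 94179082 to 94180327, with 5513 bases between the end of one and the start of the other. Their annotated transcripts share 0 words of 31 bases. Promoters of 4 of the genes are shown because they hold response elements of the kinds named above. They are RefSeq sequences on GRCm38.p6, from 250 bases before to 50 bases after the start. For Mt2 (chr8:94172368-94172667, plus strand) and Mt1 (chr8:94178839-94179138, plus strand) the capitals mark TGCACNC or TGCGCNC, the core letters of a metal response element, on either strand. For Sgk1 (chr10:21993640-21993939, plus strand, 1 of its 6 listed starts) they mark AGAACA and TGTTCT with any 3 bases between them, a full glucocorticoid response element. For Nfkbia (chr12:55492598-55492897, minus strand) they mark GGGA and TTTCC with any 1 base between them, an NF-kB site, read on the opposite strand.
Mt2: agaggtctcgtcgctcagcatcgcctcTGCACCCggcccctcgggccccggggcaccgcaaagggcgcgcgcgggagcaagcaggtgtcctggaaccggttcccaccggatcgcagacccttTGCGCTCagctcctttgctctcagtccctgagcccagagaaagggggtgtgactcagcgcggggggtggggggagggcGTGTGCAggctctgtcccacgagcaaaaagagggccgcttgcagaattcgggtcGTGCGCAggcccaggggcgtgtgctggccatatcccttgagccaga
Mt1: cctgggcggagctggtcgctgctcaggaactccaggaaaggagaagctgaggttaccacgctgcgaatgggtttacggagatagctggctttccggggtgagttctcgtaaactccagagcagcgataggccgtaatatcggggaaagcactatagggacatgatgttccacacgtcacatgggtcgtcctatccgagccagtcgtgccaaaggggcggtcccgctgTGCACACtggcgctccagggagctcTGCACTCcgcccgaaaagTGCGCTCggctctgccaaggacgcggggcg
Sgk1: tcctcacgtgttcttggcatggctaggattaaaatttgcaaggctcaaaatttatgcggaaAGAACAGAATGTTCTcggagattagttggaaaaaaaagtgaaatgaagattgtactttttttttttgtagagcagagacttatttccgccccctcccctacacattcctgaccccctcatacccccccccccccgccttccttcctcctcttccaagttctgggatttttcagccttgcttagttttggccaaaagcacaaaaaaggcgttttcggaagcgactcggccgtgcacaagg
Nfkbia: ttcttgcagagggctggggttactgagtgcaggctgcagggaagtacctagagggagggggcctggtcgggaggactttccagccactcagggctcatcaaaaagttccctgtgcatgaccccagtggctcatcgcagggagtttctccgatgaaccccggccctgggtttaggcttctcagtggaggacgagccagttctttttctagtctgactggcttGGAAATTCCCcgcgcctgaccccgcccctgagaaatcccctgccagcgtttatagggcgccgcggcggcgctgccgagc

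The Mt2 window held 4 metal response cores, which begin at -223, -128, -50 and 5 relative to the start. The Mt1 window held 3, at -23, 3 and 21. These positions count from the RefSeq start. For Mt2 that start, and the core at 5, lie upstream of the GENCODE start given above. Of 32851 mouse promoters of the same length, 25.7% held at least 1 such core, 1.97% at least 3 and 0.517% at least 4. The full glucocorticoid element of Sgk1 began at -189, and 3 of the 32851 promoters (0.00913%) held those letters. TGTTCT, a single arm of that element, is part of the full element and was present in 19% of promoters. Among the members it was found at 3 of the Sgk1 starts and at 1 Tsc22d3 start (at -185). The NF-kB letters of Nfkbia began at -29 and occurred in 0.411% of promoters. Promoters were matched for 7 of the 9 genes. A metal response core was also found once each in windows of Hsd11b1, Nfkbia and Sgk1. A match of letters is a description and not a bound site.

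The metallothioneins had the largest differences of the 9 genes in LLC at day 21. In CPM (counts scaled to the library total, with TMM factors over all 18 libraries), Mt2 measured 33.9, 45.1, 13.6 and 45.1 in PBS libraries 1 to 4 of day 21 and 299, 147, 54.1, 409.7 and 144 in LLC libraries 1 to 5. Every LLC library lay above every PBS library, as for 5.25% of all genes tested, with library 3 the lowest and nearest to the PBS values. The means were 34.4 ± 14.9 CPM in PBS (SD, n = 4) and 211 ± 142 CPM in LLC (n = 5), a log2 difference of 2.59 ± 0.59 (SE). Over all genes this missed the threshold in edgeR's quasi-likelihood test (adjusted p = 0.0751, unadjusted p = 0.00152), and it passed without PBS library 4 (adjusted p = 0.0417). Without that library 1277 of 13726 genes passed (798 higher), against 12 of 13564 (9 higher) with all libraries. Mt1 measured 105, 134, 81.4 and 112 CPM in PBS and 328, 250.5, 113, 632 and 259 CPM in LLC. Its groups overlapped through LLC library 3 alone, which lay between PBS libraries 4 and 2. The log2 difference of Mt1 was 1.53 ± 0.42 (edgeR adjusted p = 0.0971).

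At day 7 the metallothioneins stood lower. Mt2 measured 23.1, 32.5, 30.5 and 20.3 CPM in PBS and 21.3, 71.0, 38.9, 63.3 and 72.3 CPM in LLC. LLC library 1 lay within the PBS range and the other 4 above it. The log2 difference was 1.01 ± 0.32 (edgeR adjusted p = 0.440, unadjusted p = 0.00920). Mt1 measured 74.4 to 98.9 CPM in PBS and 80.3, 139, 109, 132 and 111 CPM in LLC, again with library 1 within the PBS range. Its log2 difference was 0.37 ± 0.15 (adjusted p = 0.555). LLC against PBS was larger at day 21 than at day 7 by 1.61 ± 0.68 for Mt2 (adjusted p = 0.222) and 1.18 ± 0.46 for Mt1 (adjusted p = 0.185), and neither interaction passed.

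**Figure D1:**
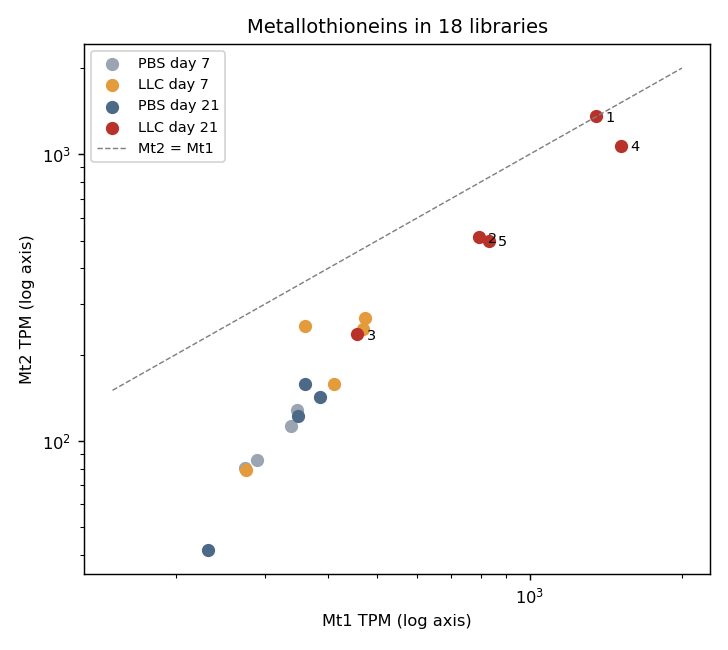
Mt1 (x) and Mt2 (y) in TPM on log axes, 1 point per library, coloured by group, with the dashed line where both are equal and numbers naming the day 21 LLC libraries. Day 21 LLC libraries 1, 2, 4 and 5 lie apart at 795 to 1514 TPM of Mt1, while library 3, at 457 TPM, lies among the day 7 LLC libraries.

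Within LLC the metallothioneins stood higher at day 21 than at day 7, and edgeR called only these 2 of the 9 genes in any of the 5 comparisons. Mt1 was higher by 1.47 ± 0.31 on the log2 scale (edgeR adjusted p = 0.0333) and Mt2 by 1.98 ± 0.47 (adjusted p = 0.0428). Of all genes tested, 0.844% passed in the same direction. Values of both genes overlapped between the days through day 21 library 3, and the largest values of day 21 were those of library 4. Both calls lay close to the threshold. Without day 21 LLC library 4 the adjusted p were 0.0584 for Mt1 and 0.105 for Mt2. Leaving out any 1 of day 7 LLC libraries 1 to 5 also ended both calls (0.0513 to 0.0954 for Mt1 and 0.0553 to 0.109 for Mt2). The call of Mt1 was lost without day 7 PBS library 2 (0.0504), and that of Mt2 without any 1 of the 4 day 7 PBS libraries (0.0586 to 0.0602) or without day 21 PBS library 1 (0.0561) or 2 (0.0566). With the 10 LLC libraries fitted alone the adjusted p were 0.173 and 0.18, and in limma on log2(TPM + 1) they were 0.0532 and 0.105. Without a filter on low counts that of Mt2 was 0.0512. Removing day 21 LLC libraries 1 and 3, the libraries with B cell markers, gave 0.00442 and 0.0134. Library 3 was the lowest of its group for both genes, so these values say nothing about the B cell markers. In that fit, chosen after the data were seen, 1188 of 14040 genes passed (720 higher), against 248 of 13975 (118 higher) with all libraries. Within PBS the same interval gave 0.29 ± 0.34 for Mt1 and 0.37 ± 0.51 for Mt2 (adjusted p = 0.674 and 0.724). The comparison within LLC shares its libraries with the tumour comparisons of both days, so their values are not independent of one another. Day 7 and day 21 libraries are different samples, within LLC and within PBS. Time after injection cannot be told apart from other differences between the collections.

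The balance between the metallothioneins also differed between groups. The ratio of Mt2 to Mt1 TPM was 0.323 ± 0.0348 in PBS at day 7 (SD, n = 4), 0.493 ± 0.161 in LLC at day 7 (n = 5), 0.333 ± 0.109 in PBS at day 21 and 0.694 ± 0.185 in LLC at day 21. At day 21 the ratios did not overlap: PBS lay at 0.180 to 0.437 and LLC at 0.514 to 1.00. At day 7, LLC library 1 had 0.288, below all PBS libraries, and the other LLC libraries 0.385 to 0.700. Deviations from the group means over the 18 libraries correlated with Pearson's r = 0.90 and Spearman's rho = 0.91, as a description of libraries that also share depth and cell makeup. Leaving out the 2 libraries farthest from the median of Mt1 (day 21 LLC libraries 3 and 4) gave r = 0.91.

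**Figure D2:**
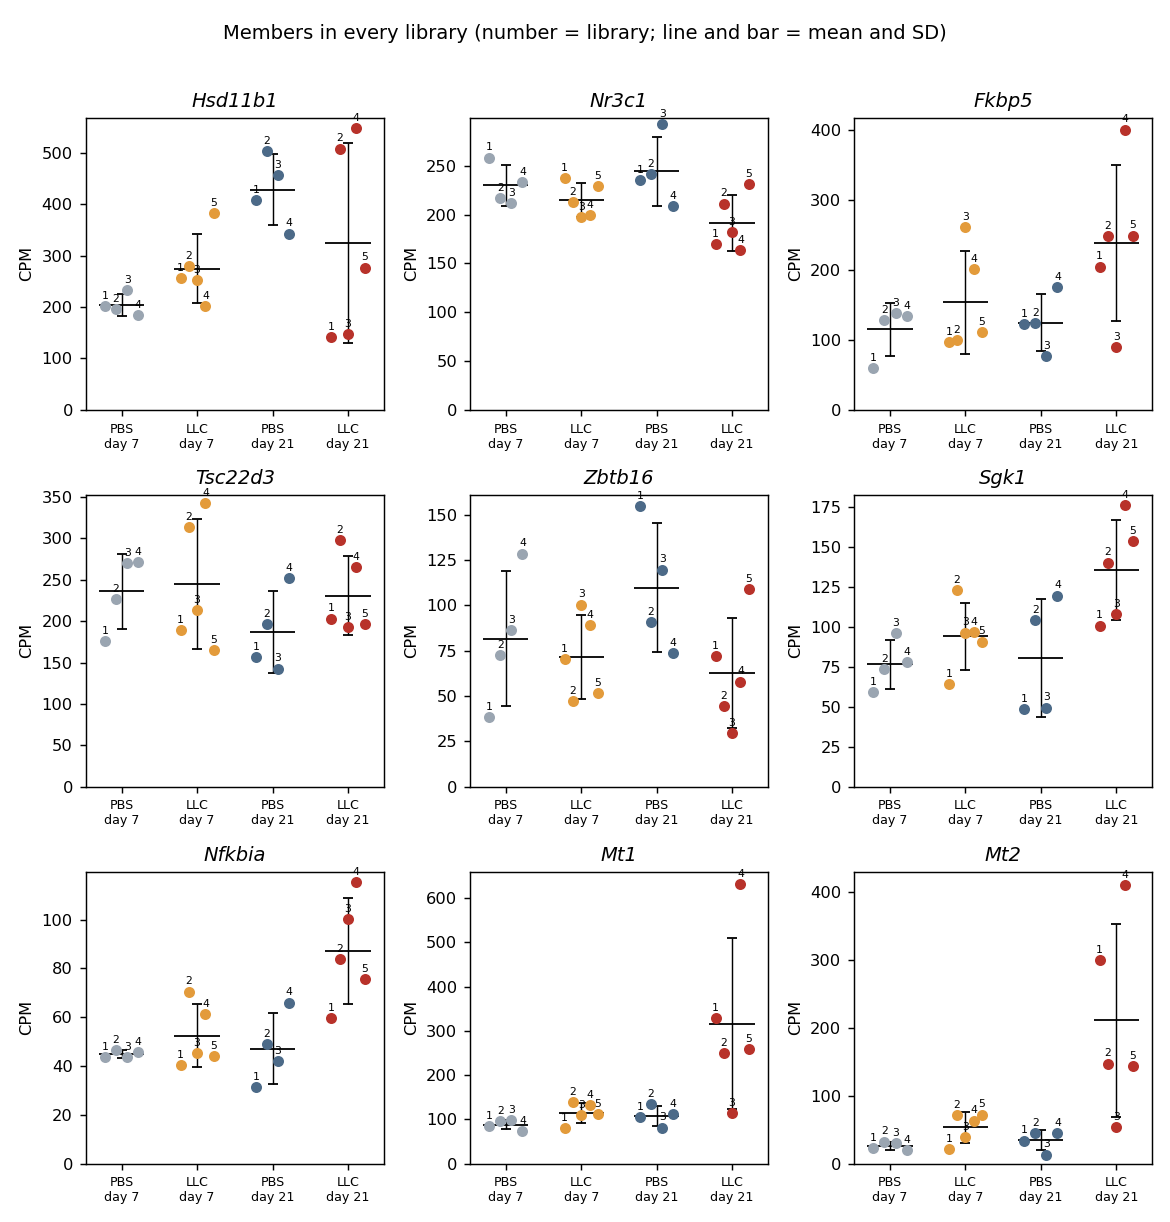
CPM of the 9 genes in each of the 18 libraries, 1 panel per gene with an axis from 0, points numbered by library, and a line and bar for the mean and SD of the group. LLC at day 21 stands highest for Mt1 and Mt2, while Hsd11b1 at day 21 splits into LLC libraries 2 and 4, above 500 CPM, and libraries 1 and 3, under 150 CPM.

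Hsd11b1 (ENSMUSG00000016194, chromosome 1, 193221634 to 193264075, minus strand), which makes active hormone inside the cell, followed another course. It measured 203, 197, 233 and 184 CPM in PBS at day 7 and 408, 504, 457 and 343 CPM in PBS at day 21. Every day 21 PBS library exceeded every day 7 PBS library, as in 7.93% of all genes tested. The log2 difference of 1.07 ± 0.36 missed the threshold in edgeR (adjusted p = 0.106), passed in DESeq2 (0.0363), without day 21 LLC library 1 (0.0482) and with the 8 PBS libraries fitted alone (0.0138). On the higher side those fits in turn called 413 of 13975, 318 of 13923 and 338 of 13287 genes. The main fit called 97 of 13975. PBS library 4, which had the macrophage level of day 7, had the lowest Hsd11b1 value of the 4 day 21 PBS libraries. The gene overlaps Lamb3 on the opposite strand, and no strand marking is stated, so some reads could belong to either.

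In LLC, Hsd11b1 measured 257, 279, 253, 201 and 383 CPM at day 7 and 141, 508, 147, 547 and 277 CPM at day 21. Libraries 1 and 3 of day 21 lay below every other library of the study, and libraries 2 and 4 above every other. LLC against PBS gave 0.43 ± 0.16 at day 7 (edgeR adjusted p = 0.522) and -0.43 ± 0.41 at day 21 (adjusted p = 0.543), with a difference between the days of -0.83 ± 0.47 (adjusted p = 0.366). Without LLC libraries 1 and 3 the day 21 value was 0.03. The authors' deposited table gives an FDR of 0.0527 for Hsd11b1 at day 7 and 0.688 at day 21. Summed fat cell markers at day 21 were lowest in LLC library 1 (43299 TPM) and highest in LLC library 4 (78704 TPM). Their part in the spread of Hsd11b1 was not tested.

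Nr3c1 (ENSMUSG00000024431), the receptor, varied little in CPM between libraries of a group. Its highest library was 1.20 to 1.41 times its lowest within a group, the smallest such ratio of the 9 genes in each group but PBS at day 7, where Nfkbia had 1.07. At day 21 it measured 235, 241, 293 and 208 CPM in PBS and 169.9, 211, 182, 164 and 231 CPM in LLC, and 3 LLC libraries lay below all PBS libraries. The log2 difference was -0.37 ± 0.15 (edgeR adjusted p = 0.178, unadjusted p = 0.0329). It passed in 1 fit of all 18 libraries (adjusted p = 0.0489), where 8.54% of genes passed on the lower side. In TPM it measured 62.8 to 75.2 in PBS and 37.0 to 67.1 in LLC at day 21. Only LLC library 4 then lay below the PBS range. In limma on log2(TPM + 1) the difference was -0.22 ± 0.19 (adjusted p = 0.568). At day 7 the means were 230.1 ± 21.0 CPM in PBS and 215 ± 17.7 CPM in LLC (log2 -0.09 ± 0.09, adjusted p = 0.817). Across libraries its deviations from group means were negatively correlated with those of 6 members, by r most with Mt2 (r = -0.53, rho = -0.49, and r = -0.63 without the 2 libraries farthest from the median of Mt2). By rho, Fkbp5 (-0.60), Mt1 (-0.58) and Tsc22d3 (-0.51) were more negative than Mt2. Without the 2 libraries farthest from its own median, Mt1 also had r = -0.63.

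Of the targets that feed back on the receptor or its partners, Fkbp5 (ENSMUSG00000024222, chromosome 17, 28399094 to 28517527) had 1 low library in PBS at day 7. It measured 59.3, 129, 139 and 134 CPM in PBS and 96.8, 99.8, 261, 201 and 111 CPM in LLC at day 7. At day 21 it measured 122, 124, 77.0 and 176 CPM in PBS and 205, 248, 89.9, 401 and 249 CPM in LLC. At day 21, 4 of 5 LLC libraries lay above all PBS libraries and library 3 lay within them. The log2 difference was 0.91 ± 0.38 at day 21 (edgeR adjusted p = 0.194) and 0.42 ± 0.34 at day 7 (adjusted p = 0.787). With both PBS library 4 and LLC libraries 1 and 3 removed, Fkbp5 passed at day 21 (1.46, adjusted p = 0.0216). In that fit 962 of 13392 genes passed (725 higher), against 12 of 13564 with all libraries.

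Nfkbia (ENSMUSG00000021025, chromosome 12, 55489410 to 55492647), the NF-kB inhibitor, was almost constant in PBS at day 7, at 43.6, 46.7, 43.5 and 45.7 CPM. LLC at day 7 gave 40.4, 70.5, 45.5, 61.3 and 44.2 CPM, with libraries 2 and 4 high (log2 0.23 ± 0.15, edgeR adjusted p = 0.729). At day 21 it measured 31.5, 49.0, 41.9 and 66.0 CPM in PBS and 59.6, 83.8, 100.3, 115 and 75.7 CPM in LLC. The groups overlapped only where LLC library 1 lay below PBS library 4. The log2 difference was 0.86 ± 0.24 (adjusted p = 0.101) and, without PBS library 4, 1.07 (adjusted p = 0.0281), where 1277 of 13726 genes passed. Between the days within LLC Nfkbia stood higher by 0.73 ± 0.20 (adjusted p = 0.0738). It passed there without day 21 PBS library 4 (0.0463) and without day 21 LLC library 1 (0.0223). Those fits called 340 of 14146 and 1036 of 13923 genes, against 248 of 13975 with all libraries.

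Sgk1 (ENSMUSG00000019970, chromosome 10, 21882184 to 21999903), a kinase that acts on ion channels and on FOXO factors, measured 48.6, 104, 49.6 and 119.6 CPM in PBS and 101, 140.2, 108, 176 and 154 CPM in LLC at day 21. PBS libraries 1 and 3 lay below every day 7 library, and libraries 2 and 4 overlapped with LLC libraries 1 and 3. The log2 difference was 0.73 ± 0.31 (edgeR adjusted p = 0.194). At day 7 the means were 76.8 ± 15.3 CPM in PBS and 94.3 ± 21.0 CPM in LLC (log2 0.30 ± 0.18, adjusted p = 0.700).

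Tsc22d3 (ENSMUSG00000031431, chromosome X, 140539528 to 140600659), the GILZ gene, measured 176 to 271 CPM in PBS and 165 to 342 CPM in LLC at day 7, and 143 to 252 CPM in PBS and 193 to 297 CPM in LLC at day 21. The 4 groups overlapped throughout. Its log2 differences were 0.06 ± 0.22 at day 7 (edgeR adjusted p = 0.972) and 0.28 ± 0.21 at day 21 (adjusted p = 0.417). Zbtb16 (ENSMUSG00000066687, chromosome 9, 48654297 to 48836222), also called PLZF, measured 155, 90.6, 119.7 and 73.6 CPM in PBS and 72.1, 44.3, 29.4, 58.0 and 109 CPM in LLC at day 21. LLC library 5 was the exception to an otherwise lower LLC group. The log2 difference of Zbtb16 was -0.83 ± 0.36 (adjusted p = 0.202), against -0.18 ± 0.31 at day 7 (adjusted p = 0.916).

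As a group, 0 of the 9 genes passed edgeR at day 7, where 0.00744% of 13445 genes did, and DESeq2 also called 0, where it called 0.595% of genes. An unadjusted p under 0.05 was found for 3 (Mt1, Mt2 and Hsd11b1, all higher), where 4.86% of genes were on that side and 8.51% on either. The median log2 difference of the 9 was 0.301, against 0.005 over all genes. At day 21, 0 of 9 passed edgeR, where 0.0885% of 13564 genes did. An unadjusted p under 0.05 was found for 7 (5 higher: Mt1, Mt2, Nfkbia, Fkbp5 and Sgk1, and 2 lower: Zbtb16 and Nr3c1), where 11.9% of genes were on the higher and 11.5% on the lower side, 23.3% in all. The median of the 9 was 0.732, against 0.017 over all genes. The groups did not overlap for Mt2, as for 5.25% of genes on the higher side. Between the days within PBS, 0 of 9 passed edgeR, where 3.21% of 13975 genes did. There only Hsd11b1 had an unadjusted p under 0.05, where 9.47% of genes did on the higher side, and only Hsd11b1 passed DESeq2, where 2.96% did. Within LLC, Mt1, Mt2 and Nfkbia (0.0181) passed DESeq2, where 3.04% of genes did on the higher side, and the same 3 had an unadjusted p under 0.05, where 10.9% did. The medians of the 9 were 0.114 within PBS and 0.525 within LLC, against 0.006 and 0.047 over all genes.

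**Figure D3:**
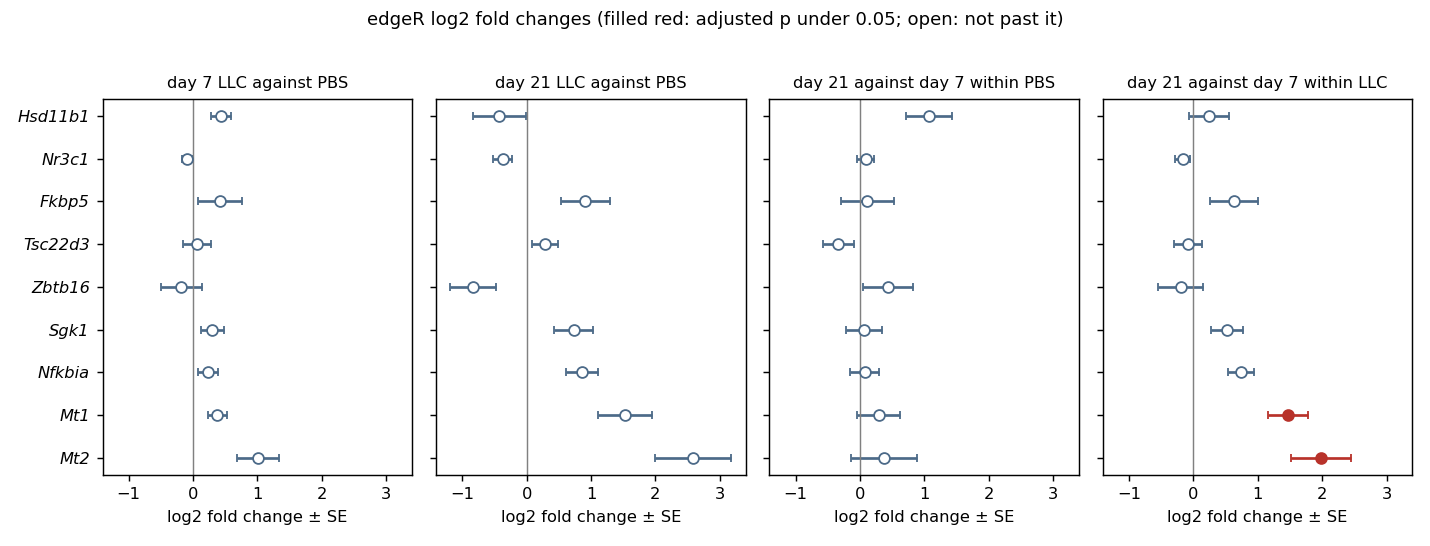
Log2 fold changes (points) with SE (bars) of the 9 genes in 4 comparisons, from edgeR, filled red where the adjusted p was under 0.05. The 2 filled points are Mt1 (1.47) and Mt2 (1.98) between the days within LLC, and the day 21 tumour comparison has the same 2 genes highest, at 1.53 and 2.59, unfilled.

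The day 21 result depended on the tool and on which PBS libraries stood as controls. DESeq2 called Mt1 (adjusted p = 0.00478), Mt2 (0.000138) and Nfkbia (0.0167) at day 21, where it called 5.9% of all genes on the higher side and 11.5% in all. In 1 fit of all 18 libraries Mt1, Mt2 and Nfkbia passed (0.00701, 0.00469 and 0.0124), as did Nr3c1 on the lower side, where 10.5% of all genes were called higher. The authors' deposited table lists an FDR of 0.00162 for Mt1, 5.56e-05 for Mt2, 0.00723 for Nfkbia, 0.0556 for Fkbp5 and 0.0568 for Sgk1.

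With PBS library 4 as the only control (assumed to vary as the LLC libraries do), the log2 differences were 2.20 for Mt2 and 1.48 for Mt1, close to those with all 4. Those of Nfkbia (0.38), Fkbp5 (0.42) and Sgk1 (0.16) were under 0.5 in that fit, and Tsc22d3 had -0.15. The SE of Mt2 was then 1.09 and the adjusted p of each of the 9 genes was 1.00. This split was chosen after the data were seen.

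TPM gave a different picture of overlap. At day 21, Sgk1 measured 32.5 to 88.4 TPM in PBS and 96.5 to 112 TPM in LLC, without overlap. Nfkbia measured 36.7 to 74.5 and 85.0 to 141 TPM, and Mt1 231 to 386 and 457 to 1514 TPM, also without overlap. Mt2, the fourth, measured 41.5 to 157 and 235 to 1355 TPM. Of all genes, 4.48% did not overlap on the higher side in TPM. On the TPM scale the median of all genes at day 21 shifted by 0.134 (log2 of TPM + 1), against 0.017 on the count scale. None of the 9 passed limma on TPM at day 21 (adjusted p = 0.0636 for Mt2 and 0.0782 for Mt1 and Nfkbia).

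Set beside one another per length, mean levels in PBS at day 7 ran from Mt1 (312 ± 36.2 TPM), Hsd11b1 (266 ± 19.6) and Tsc22d3 (242 ± 59.5) through Mt2 (102 ± 22.4) and Nr3c1 (75.9 ± 8.18 TPM) to Zbtb16 (33.6 ± 18.3 TPM). Fkbp5 (64.5 ± 23.6 TPM), Sgk1 (61.9 ± 14.2) and Nfkbia (55.8 ± 6.20) lay between Nr3c1 and Zbtb16 and within their own spread of one another. In LLC at day 21 Mt1 (990.1 ± 435 TPM) and Mt2 (735 ± 462 TPM) led, and their ranges overlapped. Hsd11b1 followed at 370.2 ± 169 TPM, and Nr3c1 (60.2 ± 13.0 TPM) and Zbtb16 (24.4 ± 12.7 TPM) were the lowest.

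Beyond the 9 genes, the partners of the receptor had small median differences on both days. The list of ligand activation and receptor chaperones had 15 measured members with a median log2 difference of 0.095 at day 7 and 0.058 at day 21, and 0 passed on either day in edgeR or DESeq2. An unadjusted p under 0.05 was found for 4 at day 7 and 0 at day 21, against 8.51% and 23.3% of all genes. Smallest in p, and not past the threshold, were the chaperones Hsp90aa1 (0.61 ± 0.22, edgeR adjusted p = 0.502) and Hsp90ab1 (0.41 ± 0.17) at day 7, and Ptges3, the co-chaperone p23 (0.31 ± 0.16), and Nr3c2, the mineralocorticoid receptor (-0.40 ± 0.22), at day 21. Within LLC, 12 of the 15 were lower at day 21 than at day 7, with a median of -0.249, where 57.8% of all genes lay above 0. In that comparison 0 passed edgeR, 3 passed DESeq2 and 7 had an unadjusted p under 0.05, all lower, where 5.82% of genes passed DESeq2 and 7.71% had such a p on the lower side.

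Of 30 other glucocorticoid targets, 18 lay above 0 and 12 below at day 21, with a median of 0.085. Over all genes, 51.9% lay above 0 at day 21 and 51.1% at day 7. In edgeR 0 passed, in DESeq2 2 passed, and 8 had an unadjusted p under 0.05 (6 higher, 2 lower), where 11.5% of all genes passed DESeq2 and 23.3% had such a p. Lcn2, the iron-binding lipocalin, had the largest difference (4.12 ± 1.04, edgeR adjusted p = 0.0809) without overlap of groups. It was low in PBS, at 0.602 to 1.43 CPM, and spread widely in LLC, from 2.03 to 61.0 CPM. Cd163, the haemoglobin scavenger receptor of macrophages, had 1.53 ± 0.47 (adjusted p = 0.113). At day 7, 19 of 29 lay above 0 (median 0.09) and 0 passed edgeR, 2 passed DESeq2 and 10 had an unadjusted p under 0.05, against 0.595% and 8.51% of all genes. The smallest p belonged to Cebpb, an adipogenic factor (0.64 ± 0.16), and Txnip, which restrains thioredoxin (0.51 ± 0.14; adjusted p = 0.399 for both). The tumour effect of Cebpb differed between the days by -1.23 ± 0.31 (adjusted p = 0.0746), not past the threshold. Within PBS Cd163 was lower at day 21 than at day 7 by 1.87 ± 0.41 (edgeR adjusted p = 0.0263). It was the 1 call of 30, where 2.52% of all genes passed on the lower side. It is also a macrophage marker, and the day 21 PBS libraries 1 to 3 had the low macrophage sums given above.

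Zinc and metal handling had 17 measured members and a median of 0.170 at day 21. In edgeR 0 passed, in DESeq2 2 passed, and 6 had an unadjusted p under 0.05 (4 higher, 2 lower), beside the same 11.5% and 23.3% of all genes. The zinc transporters Slc30a7 (0.49 ± 0.10, edgeR adjusted p = 0.0663) and Slc39a6 (0.63 ± 0.18, adjusted p = 0.0999), of the Golgi and the cell surface, came nearest. Within PBS both were lower at day 21 than at day 7. Slc30a7 was lower by 0.46 ± 0.10 (edgeR adjusted p = 0.0225) and Slc39a6 by 0.66 ± 0.15 (adjusted p = 0.0307), 2 calls of 17. Their higher value in LLC at day 21 was thus measured against PBS libraries that lay lower than those of day 7, and the comparisons share those libraries. The list also holds Mt3, the metallothionein best known from brain, which is named here after its values were seen. It was near the filter, at 1.53 ± 0.551 CPM in PBS (SD, n = 4) and 0.770 ± 0.101 CPM in LLC (n = 5) at day 21. Its LLC libraries lay below its PBS libraries, as for 4.46% of genes, and it did not pass (edgeR adjusted p = 0.117). At day 7 the smallest p belonged to Hmox1, heme oxygenase (0.54 ± 0.22), and the zinc importer Slc39a14 (0.29 ± 0.15).

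NF-kB feedback genes lay above 0 in 15 of 15 members at day 7 (median 0.228) and in 14 of 15 at day 21 (median 0.808), and edgeR called 0 on either day. An unadjusted p under 0.05 was found for 5 at day 7 and 8 at day 21, all higher, against 4.86% and 11.9% of all genes on that side. DESeq2 called 0 and 4 of the list, all higher, against 0.595% of all genes in either direction at day 7 and 5.9% on the higher side at day 21. Icam1, an adhesion molecule, had 1.26 ± 0.29 without overlap of groups (edgeR adjusted p = 0.0751) and Bcl3, a nuclear IkB protein, 1.31 ± 0.40 (adjusted p = 0.112). At day 7 Bcl3 had 0.56 ± 0.17 and the chemokine Ccl2 2.15 ± 0.66 (adjusted p = 0.408 and 0.418). Some genes of the list spread widely within LLC at day 21, such as Nfkb2 (20.4 to 80.2 CPM) and Nfkbie (3.29 to 29.4 CPM). Neutrophil markers were also higher in LLC at day 21, with summed TPM of 4.39 to 11.3 in PBS and 31.1 to 138 in LLC. At day 7 they summed to 15.3 to 27.9 in PBS and 21.1 to 86.9 in LLC. The highest sum was that of day 21 LLC library 4, and Ly6g, Retnlg and S100a9 were at 0 in some libraries. Mast cell markers summed to 10.2 to 15.2 in PBS and 91.1 to 184 in LLC at day 21. At day 7 they summed to 56.5 to 134 in PBS and 63.2 to 140 in LLC, so the day 21 PBS libraries stood apart. The part of these cells in the list, in Nfkbia or in the metallothioneins was not tested. Nor was that of the B cell and lymph node markers of LLC library 3 given above (2216 TPM).

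Immediate early genes, which respond to handling and stress within minutes, lay above 0 in 14 of 15 members at day 7 (median 0.618) and in 7 of 15 at day 21 (median -0.034). In edgeR 0 passed on either day, in DESeq2 0 and 1, and 6 and 3 had an unadjusted p under 0.05. Over all genes DESeq2 called 0.595% at day 7 and 11.5% at day 21, and 8.51% and 23.3% had such a p. Junb (0.97 ± 0.32, edgeR adjusted p = 0.459) and Egr1 (1.58 ± 0.57, adjusted p = 0.502) had the smallest p at day 7, and Klf4 (1.38 ± 0.40, adjusted p = 0.104) and Klf2 (1.08 ± 0.40, adjusted p = 0.153) at day 21. Clock genes, through which the daily glucocorticoid rhythm acts on tissues, had medians of -0.227 at day 7 and -0.484 at day 21. Of 15 genes, 3 lay above 0 at day 7 and 4 at day 21. In edgeR 0 passed on either day, in DESeq2 0 and 3, and 2 and 7 had an unadjusted p under 0.05, beside those same shares of all genes. The 7 of day 21 were 3 higher and 4 lower, so the median does not describe every gene of the list. Of all genes, 11.9% had such a p on the higher and 11.5% on the lower side. Npas2 (3.61 ± 0.97, adjusted p = 0.0926) and Clock (0.44 ± 0.13, adjusted p = 0.112), its close relative, came nearest at day 21, and Tef (-0.31 ± 0.09) and Cry2 (-0.29 ± 0.12) at day 7. Npas2 was low in PBS at day 21, at 0.391 to 1.47 CPM. Arntl, Dbp and Cry1 are named here after their values were seen. In PBS at day 21 Arntl had 5.75 ± 3.06 CPM and Dbp 70.9 ± 30.6 CPM. Means in PBS at day 7, LLC at day 7 and LLC at day 21 were 19.2, 21.2 and 17.4 CPM for Arntl. For Dbp they were 21.0, 16.9 and 18.7 CPM. Cry1 differed less, with means of 23.2 to 27.7 CPM in the 4 groups. The cause was not tested. Within PBS Clock was lower at day 21 than at day 7 by 0.58 ± 0.13 (edgeR adjusted p = 0.0285), 1 of 15. Klf4 (-1.27 ± 0.35, adjusted p = 0.0555) and, on the NF-kB list, Nfkbib (0.37 ± 0.13, adjusted p = 0.117) did not pass within PBS.

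**Figure D4:**
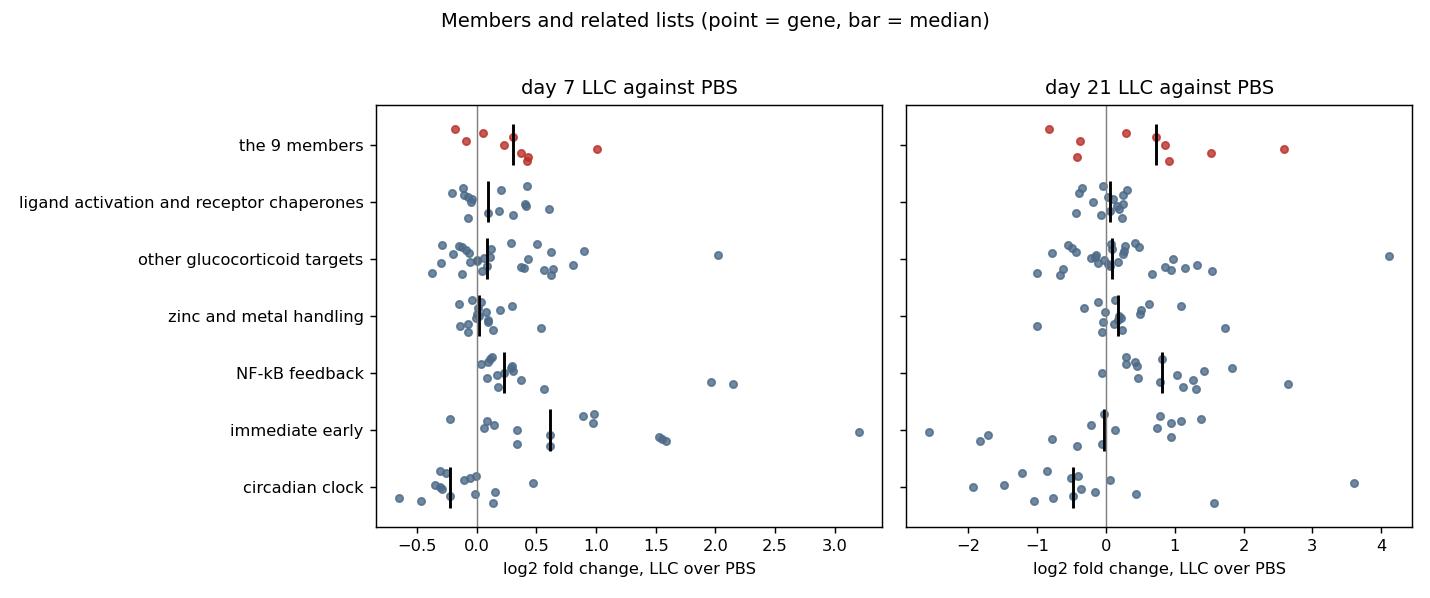
Log2 fold change of LLC over PBS at day 7 (left) and day 21 (right, a wider axis) for the 9 genes and the 6 related lists, 1 point per gene with a bar at the median. The NF-kB list has a median of 0.808 at day 21 with 14 of 15 genes above 0, and the other glucocorticoid targets a median of 0.085 with 18 of 30.

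In the tumour effect at day 21 minus that at day 7, 0 of the 9 genes passed edgeR, where 0.415% of 13975 genes did, and 0 passed DESeq2, where 5.17% did. Mt1, Mt2 and Nfkbia (0.66 ± 0.30, adjusted p = 0.256) had an unadjusted p under 0.05, where 10.2% of genes did on the higher side. The 9 had a median of 0.457, against 0.053 over all genes. In the related lists the nearest to the threshold, beside Cebpb, were Slc39a6 (0.81 ± 0.20) and Slc30a7 (0.52 ± 0.13; adjusted p = 0.0715 for both) and Klf4 (1.63 ± 0.46, adjusted p = 0.0938). Those of the other lists were Cd163 (1.52 ± 0.54), Fosb (-5.75 ± 1.83), Npas2 (3.17 ± 1.02), Clock (0.48 ± 0.18), Icam1 (0.92 ± 0.35), Birc3 (0.97 ± 0.43) and Stip1 (-0.44 ± 0.24). None of these passed. Fosb spread widely within groups, at 12.6 ± 23.1 CPM in LLC at day 7 (SD, highest library 53.9). In PBS at day 21 it had 12.8 ± 23.3 CPM (highest library 47.7). Within LLC between the days the nearest were Hsp90aa1 (-0.69 ± 0.20, adjusted p = 0.09), Icam1 (0.75 ± 0.23, adjusted p = 0.0988), Ier3 (1.27 ± 0.40, adjusted p = 0.11) and Cebpb (-0.62 ± 0.21, adjusted p = 0.13), also not past it.

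Across libraries some of the 9 genes varied together, described by correlations of deviations from group means of log2 CPM over the 18 libraries. Nfkbia and Sgk1 had r = 0.72 (rho = 0.69), Tsc22d3 and Sgk1 r = 0.70 (rho = 0.73), and Tsc22d3 and Nfkbia r = 0.67 (rho = 0.69). Leaving out the 2 libraries farthest from the median of the first-named gene gave r = 0.58, 0.70 and 0.58. Fkbp5 had r = 0.55 with Tsc22d3 (rho = 0.68), 0.56 with Sgk1 (rho = 0.58) and 0.16 with Nfkbia (rho = 0.29). Mt1 and Fkbp5 had r = 0.66 (rho = 0.45), and 0.29 without day 21 LLC libraries 3 and 4, so that it rested on them. Zbtb16 and Nfkbia had r = -0.44. In all 36 pairs were computed, and the genes of a library share its depth and cell makeup.

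**Figure D5:**
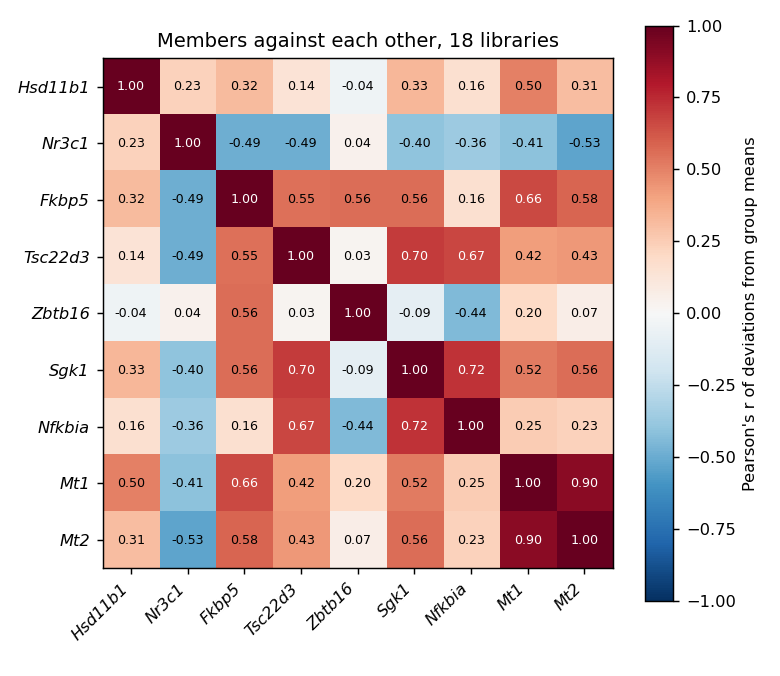
Pearson's r between the 9 genes, from deviations of log2 CPM from the group means over 18 libraries, red for positive and blue for negative. Mt1 with Mt2 (0.90) is the strongest pair, and Nr3c1 has negative r with 6 genes.

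The genes whose deviations were most like those of each member were found among 13048 genes with a mean of at least 1 CPM over the same 18 libraries. Mt1 was nearest to Txn1, thioredoxin (r = 0.90), Hax1 (0.88) and the proteasome subunit Psmb2 (0.88), and Mt2 to the eosinophil chemokine Ccl11 (0.86), Akr1a1 (0.82) and Cd63 (0.81). Hsd11b1 was nearest to Fmo1 (0.94), Rgs7 (0.94) and the ATP synthase subunit Atp5a1 (0.93). Nr3c1 was nearest to Plcb4 (0.89), Chrna2 (0.89) and Ptch1 (0.88). Fkbp5 was nearest to Blvrb, biliverdin reductase B (0.85), the phagocytic receptor Mertk (0.82) and Cyp1a1 (0.81).

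Tsc22d3 was nearest to the interferon factor Irf7 (0.83), Ube2l6 (0.81) and Fbxo34 (0.81), and Nfkbia to Ifitm1 (0.85), Sat1 (0.85) and S1pr1 (0.84). Sgk1 was nearest to Errfi1 (0.85), which is on the list of other glucocorticoid targets, as is Mertk, and then to Has1 (0.81) and Irf2bp2 (0.80). Zbtb16 was nearest to Pcdhga9 (0.89), Hsf2 (0.84) and Fbxw8 (0.77). The closest genes of Hsd11b1 had higher r than those of any other member, and those of Zbtb16 reached the lowest, at 0.77.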

How the data were processed

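RNA sequencing of 18 libraries was deposited as 1 table per day with 21899 gene IDs. Deposited counts were taken to be expected counts from RSEM, rounded before deposit, since 100% of them were whole. Deposited TPM values correct for length and total. The log2 values deposited by the authors compare mean TPM of LLC with PBS, and each deposited p-value, with its FDR, is from a test of theirs. Per the submitters' processing notes, fastp 0.23.0 and RSEM were used with the builds mm10 and GRCm38. For the aligner and for that test, the tool is not given in the sources used here. Per the labels' protocols, poly(A) RNA was made into libraries with a kit for which no strand marking is named.

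Counts were tested with edgeR 4.0.16 in R 4.3.3 (TMM, filterByExpr, quasi-likelihood, two-sided, Benjamini-Hochberg over all genes tested, threshold 0.05). Each day's tumour comparison used its 9 libraries, and the other comparisons 1 fit of all 18. Alternatives were DESeq2 1.42.0, limma 3.58.1 on log2(TPM + 1) and log2(TPM + 0.1), no filter, a replicate block and libraries left out. SE was taken as the absolute log2 change over the root of its F value. The procedure was tested on simulated counts. Libraries of a group differed by more than sampling noise (lowest chi-square per gene 15.2), so none was counted as a repeat deposit of another. This does not show that they came from separate mice. At day 7 libraries of the same number deviated together (r = 0.211, 0.121, 0.538 and 0.191 for the 4 pairs), so these numbers were treated as pairs in an alternative fit. That pairing comes from the values and not from the labels, and some pairs of different number were as high (PBS 2 with LLC 1 at 0.244, PBS 4 with LLC 2 at 0.229). The highest r is that of libraries 3, which both carry skeletal muscle markers. Gene positions are from GENCODE M21, which matched 21806 IDs.

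All 9 genes were named in every comparison. From each related list the genes past the threshold were named, up to 4, or otherwise up to 2 with the smallest p, and for each member the 3 most similar genes. Mt3, Arntl, Dbp and Cry1 were named in addition after their values were seen. From the list of ligand activation and receptor chaperones 1 gene that this rule names, and with it the counts of that list within PBS, is not reported here. The 9 genes and the lists were chosen with earlier results of these data known.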

Additional observations from a re-analysis of the deposited data

Results flagged for a closer look

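In PBS at day 7, library 1 had the lowest Fkbp5 level of the group, 59.3 CPM, and lay far from the other 3 libraries, which had 129 to 139 CPM. The gap took 0.873 of the group's range. Fkbp5 stayed below the threshold at day 7 in edgeR when this library was left out. Of 36 gene and group combinations examined this was the 1 that stood out, and chance alone gives about 1 in 20.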

How the results depend on the processing

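The number of genes called depended strongly on the tool and on single libraries, while Mt1, Mt2 and Nfkbia kept their direction at day 21 under all alternatives run. At day 7 edgeR called 1 gene, DESeq2 80, 1 fit of all 18 libraries 0 and the fit without PBS and LLC libraries 3 gave 0. At day 21 it called 12, against 1555 in DESeq2, 61 and 78 in limma on log2(TPM + 1) and log2(TPM + 0.1), 2660 in 1 fit of all 18 libraries, 962 without PBS library 4 and LLC libraries 1 and 3, and 0 with PBS library 4 as the only control. For the difference of tumour effects it called 58, against 722 in DESeq2 and 21 and 23 in limma. Between the days within PBS it called 449, against 1109 in DESeq2 and 798 with the PBS libraries alone. Within LLC it called 248, against 813 in DESeq2, 139 without a filter, 27 and 24 in limma, 2 with the LLC libraries alone and 1188 without day 21 LLC libraries 1 and 3. Both calls within LLC were also lost in limma (adjusted p = 0.0532 and 0.0564 for Mt1, 0.105 and 0.101 for Mt2), and that of Mt2 without a filter (0.0512). Leaving out 1 library at a time gave 0 to 3 calls at day 7, 0 to 1277 at day 21 (1277 without PBS library 4), 6 to 1222 for the difference, 41 to 1692 within PBS and 15 to 1036 within LLC. The fits of PBS or LLC libraries alone, that without day 21 LLC libraries 1 and 3 and those that keep or isolate PBS library 4 were chosen after the data were seen. The causes were not tested.

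With the replicate block and LLC libraries numbered 5 left out, the count was 1 at day 7, 75 for the difference of tumour effects and 2 at day 21, where same-numbered libraries correlated by -0.273, 0.307, 0.093 and -0.157. With the replicate block and all 18 libraries it was 524 within PBS and 132 within LLC, where Mt1 and Mt2 had adjusted p = 0.0527 and 0.0695 and Nfkbia 0.0399, and Sgk1 within PBS turned to -0.02. The block moved no other call of the 9 genes.

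Directions turned only for differences that were not called. With limma on TPM, at both pseudocounts, these were Tsc22d3 at day 7 (-0.01), Fkbp5 (-0.07), Nfkbia (-0.18 and -0.19), Sgk1 (-0.23) and Nr3c1 (-0.14) within PBS and Hsd11b1 within LLC (-0.03). Alternatives added after the data were seen turned Hsd11b1 at day 21 (0.03 without LLC libraries 1 and 3), Tsc22d3 at day 21 (-0.15 against PBS library 4 alone) and Tsc22d3 within LLC (0.06). Leaving out 1 library gave ranges of -0.10 to 0.17 for Tsc22d3 and -0.42 to 0.13 for Zbtb16 at day 7. Within PBS they were -0.10 to 0.29 for Fkbp5, -0.14 to 0.22 for Nfkbia, -0.19 to 0.25 for Sgk1 and -0.01 to 0.16 for Nr3c1, and within LLC -0.20 to 0.07 for Tsc22d3 and -0.03 to 0.42 for Hsd11b1. The precision of these values rests on 4 or 5 libraries a group with totals of 14566155 counts or more, and which of these limited the calls was not tested.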
